A study of Homo sapiens with 6 samples.

Results

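The 4 HOX gene clusters were examined in Calu-3 cells, an established epithelial line that was derived from a human lung adenocarcinoma. A cluster was taken as a fixed window of the genome build hg19: HOXA at 27120001 to 27260000 on chromosome 7, HOXB at 46590001 to 46820000 on chromosome 17, HOXC at 54320001 to 54460000 on chromosome 12 and HOXD at 176940001 to 177070000 on chromosome 2. The windows are 140 kb, 230 kb, 140 kb and 130 kb long, 640 kb in all. Every interval of the deposited lists that touched a window by at least 1 bp was kept, without regard to its score. That gave 33 of 73341 intervals: 16 of 34638 H3K27ac regions, 11 of 31950 H3K4me1 regions, 1 of 1537 EHF peaks of replicate 1 and 5 of 5216 EHF peaks of replicate 2. All 33 lay wholly inside a window.

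The study used chromatin immunoprecipitation followed by sequencing to map the transcription factor EHF (Ets homologous factor) and the histone marks H3K4me1 and H3K27ac in untreated Calu-3 cells kept in serum-containing medium. Its 6 libraries are 2 replicates of EHF, 1 library for each mark and 2 inputs, of which Input 1 served EHF and Input 2 the marks. No genotype or treatment differs between the libraries. The cells are a single tumour-derived line, so the values describe that line and not airway epithelium in general. Depth ran from 8418631 tags in EHF replicate 2 to 21426939 tags in H3K27ac, with 12989646 in H3K4me1. Called intervals took up 0.155% and 0.740% of tags in the EHF replicates, 5.80% in H3K4me1 and 28.9% in H3K27ac.

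HOX genes encode homeodomain transcription factors that give cells positional identity along the body axis, and epithelial cells often keep the HOX pattern of the organ they came from. In each cluster the genes are transcribed in the same direction. Those of low number, at the 3′ end, are switched on earlier and further towards the head in the embryo than those of high number, at the 5′ end. Active HOX chromatin carries H3K27ac, a mark of active promoters and enhancers, and H3K4me1 is found mainly at enhancers. Silent HOX clusters are typically packed by Polycomb proteins, whose mark was not measured here.

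The 38 HOX genes considered comprise 10 of HOXA (HOXA2 to HOXA13), 10 of HOXB (HOXB1 to HOXB9 and HOXB13), 9 of HOXC (HOXC4 to HOXC13) and 9 of HOXD (HOXD1 to HOXD13). Their order was read from RefSeq on the assembly GRCh38.p14. That is not the build of the intervals, so the order gives only the direction of each cluster, and no gene start is placed at an interval here. In HOXA and HOXB the 3′ end is at the lower coordinates, and in HOXC and HOXD at the higher ones. Markers of the labelled cell type could not be looked up for the same reason.

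The clusters also hold microRNA genes between the HOX genes, and their mature sequences are printed 5′ to 3′ from RefSeq (GRCh38.p14) with the seed, bases 2 to 8, in capitals, because 3 of the clusters encode the same seed while their marks differ widely. In HOXA, MIR196B lies between HOXA9 and HOXA10. In HOXB, MIR10A lies between HOXB4 and HOXB5, and MIR196A1 between HOXB9 and HOXB13. In HOXC, MIR196A2 lies between HOXC9 and HOXC10, and in HOXD, MIR10B lies between HOXD4 and HOXD8.
miR-196a-5p (HOXB and HOXC): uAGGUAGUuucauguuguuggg
miR-196b-5p (HOXA): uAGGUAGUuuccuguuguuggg
miR-10a-5p (HOXB): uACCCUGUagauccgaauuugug
miR-10b-3p (HOXD): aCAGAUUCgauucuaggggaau
The seed AGGUAGU is shared by the miR-196 genes of HOXA, HOXB and HOXC. The 2 miR-10 sequences are opposite arms, 5p and 3p, and were not compared. The mature 5p sequences of MIR196A1 in HOXB and MIR196A2 in HOXC are identical, and that of HOXA differs from them by 1 substitution, A12C, counted from the 5′ end. miR-196 is known to repress HOX messenger RNAs, HOXB8 among them.

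H3K27ac differed widely between the clusters. HOXB had 35.2% of its window in H3K27ac regions and HOXA 8.66%, whereas HOXC had 0.358% and HOXD had none. Over the whole genome, taken to the furthest interval end on each chromosome, 2.10% of bases were covered. HOXB was thus 16.8-fold and HOXA 4.12-fold above the genome, and HOXC was below it at 0.170 times its share. HOXB was 4.07-fold above HOXA and 98.3-fold above HOXC. HOXB alone held 86.5% of all H3K27ac bases found in the 4 windows, although it makes up 35.9% of their length. There is 1 library per mark, so these shares have no replicate error and no test.

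To read these shares against the genome, it was divided into tiles as long as each window. Of 13425 tiles of 230 kb, 1 held as many H3K27ac bases as HOXB, or 0.00745%. With the tiles moved by 115 kb, 2 did, and 1 of these lay over HOXB itself. Of 22063 tiles of 140 kb, 6.12% held at least as many as HOXA and 52.2% at least as many as HOXC. Of tiles that held any H3K27ac, 99.7% were at or above HOXC. That share was fixed by its 1 region of 501 bp, the narrowest width of the list, since any tile with a whole region reaches it. Tiles of 130 kb with no H3K27ac region, as in HOXD, made up 49.2% of 23758, so an empty window of that size was common. Tiles include unmapped and gene-free DNA. Each window was set around its cluster, whereas a tile can cut through a marked stretch, so tiles may miss stretches covered as densely as HOXB.

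**Figure D1:**
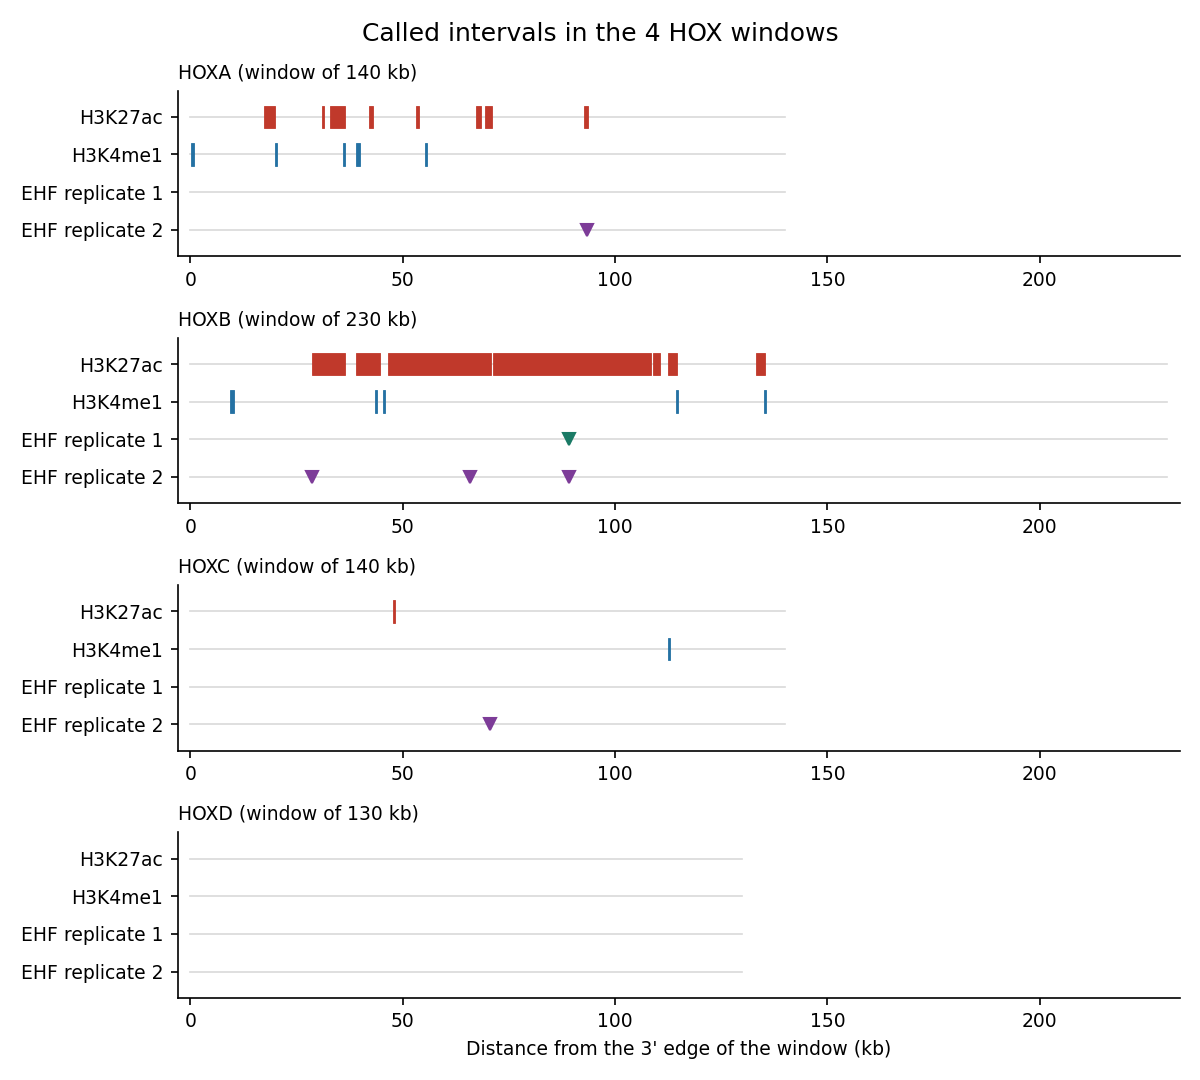
Called intervals in the 4 windows, each drawn from its 3′ edge in kb. Bars are H3K27ac and H3K4me1 regions to scale and triangles mark EHF peaks of each replicate. HOXB carries 7 H3K27ac regions in the first 3 of its 5 parts, HOXA carries 8 short ones, HOXC carries 1 and HOXD carries no interval of any list.

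H3K4me1 separated the clusters far less. It covered 2.25% of HOXA, 1.21% of HOXB, 0.358% of HOXC and none of HOXD, against 0.764% of the genome. HOXA was highest here, 1.86-fold above HOXB. At least as many H3K4me1 bases as HOXA were found in 10.4% of tiles of its size. The same share was 20.5% for HOXB and 44.0% for HOXC, and 56.9% of tiles of the size of HOXD had no H3K4me1. As for H3K27ac, the share for HOXC was fixed by its 1 region of 501 bp, the narrowest width of the list. For every 100 bases of H3K27ac there were 26.0 of H3K4me1 in HOXA and 3.45 in HOXB, both below the 36.4 of the genome. HOXC lay above the genome, since each mark covered the same length there, 1 region of 501 bp. The H3K4me1 library is the shallower of the 2 mark libraries, and the part of depth in this ratio was not tested.

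HOXB holds HOXB1, which acts in the hindbrain, HOXB4, known from blood stem cells, HOXB5, which takes part in lung branching, and HOXB13, a gene of prostate and hindgut. Its 7 H3K27ac regions had a median width of 5777 bp (range 1626 to 37148 bp), against a median of 1370 bp over the whole list. The widest, at 46661249 to 46698396, was 37148 bp wide with a deposited score of 2166. The score is the authors' tag count for the interval, scaled to a library of 10000000 tags. This region ranked 3 by width and 29 by score among 34638 regions. The next, at 46636644 to 46660735, was 24092 bp wide with a score of 1546, and ranked 24 by width. The third, at 46618530 to 46626293, was 7764 bp wide with a score of 442. Regions of at least 20000 bp made up 0.113% of the list, 39 in number, and HOXB held 2 of them.

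These HOXB regions stand almost end to end. The gap between the 2 widest is 513 bp, and a region of 1626 bp follows after a gap of 499 bp. When regions of the list were merged across gaps of up to 1000 bp, they became 1 domain of 63878 bp, at 46636644 to 46700521. That domain was the widest of the 32371 merged domains, ahead of 49923 bp on chromosome 2. With gaps of up to 500 bp the widest HOXB region was 39273 bp and ranked 2, and with gaps of up to 2000 bp it was 75809 bp and ranked 1. The rank of HOXB by width thus ran from 3 to 1 with the gap allowed.

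The signal per kb inside the HOXB regions was above that of the list. How it compared with the DNA around depended on the measure. The median score per kb of the 7 regions was 56.9, against 27.9 over the list and 41.3 within 1 Mb on either side. Summed over regions, the score per kb was 57.6 in HOXB, 57.1 around it and 44.6 over the list. For HOXA the medians were 39.5 inside and 41.6 around, and the summed values 39.7 and 63.7. DNA copy number, which raises the tags of every interval on an amplified stretch, was not measured, and its part in these scores was not tested.

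The 2 broadest HOXB regions held no H3K4me1 region. Over the whole list, 79.5% of H3K27ac regions of at least 20000 bp met one, and HOXB supplied 2 of the 8 that did not. The 5 H3K4me1 regions of the HOXB window lay beside the broad domain. The widest, at 46599385 to 46600173, was 789 bp with a score of 25 and was 18356 bp from the nearest H3K27ac region. The other 4 were each 501 bp wide, starting at 46633424, 46635374, 46704248 and 46725116, with scores of 12, 14, 12 and 11. The first of these lay inside an H3K27ac region and the second in the gap before the domain. The remaining pair overlapped H3K27ac regions by 450 bp and 200 bp on the 5′ side of the domain. Only 1.42% of the H3K27ac bases of HOXB also carried H3K4me1, against 4.60% in HOXA and 15.3% in the genome.

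**Figure D2:**
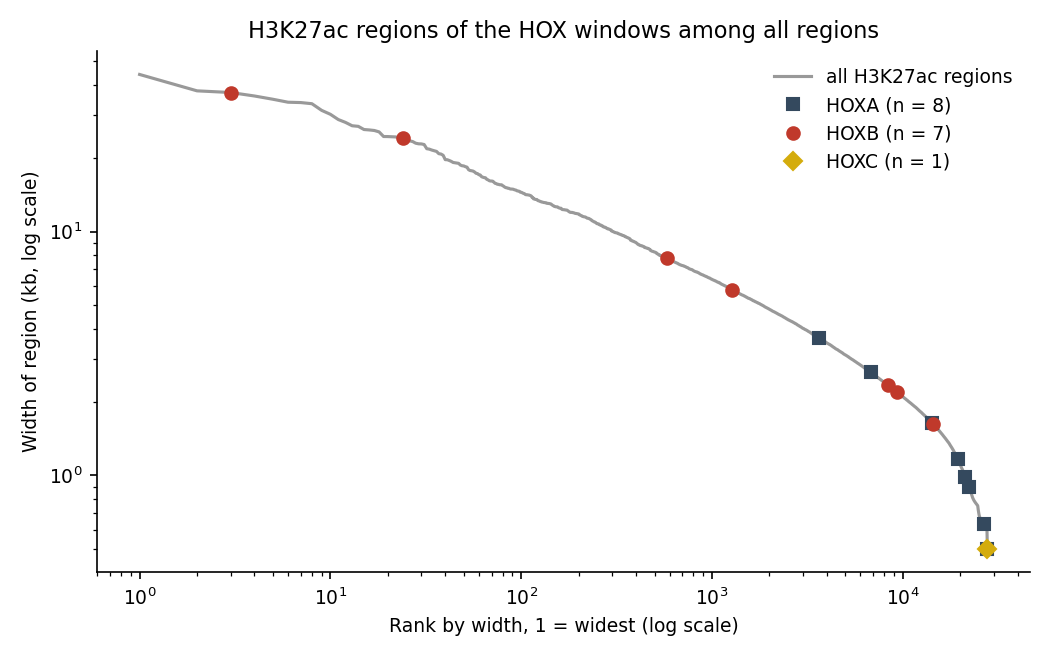
Width in kb of each H3K27ac region against its rank by width among 34638 regions, both axes on a log scale. The grey line is the whole list and the symbols are regions of HOXA, HOXB and HOXC. HOXB spans the curve from rank 3 (37148 bp) to 1626 bp, and no HOXA region is wider than 3657 bp.

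HOXA holds HOXA5, needed for lung formation in the mouse, HOXA3, a gene of thymus and parathyroid, and HOXA13, a gene of digits and the urogenital tract. Its H3K27ac regions were many and short. The 8 regions had a median width of 1074 bp (range 501 to 3657 bp), below the 1370 bp of the list. The widest, at 27152848 to 27156504, was 3657 bp with a score of 155, and 10.5% of the list was at least as wide. The second, at 27137350 to 27139999, was 2650 bp with a score of 117. The third, at 27189279 to 27190913, was 1635 bp with a score of 67. Per kb, the 8 regions scored from 27.5 to 46.9, all near or above the list median of 27.9.

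HOXA also held 5 H3K4me1 regions, of which 2 met H3K27ac, beside 45.2% of the whole list. The widest, at 27159038 to 27160015, was 978 bp with a score of 25 and lay 2098 bp from the nearest H3K27ac region. The next, at 27120118 to 27120792, was 675 bp with a score of 12, at the 3′ edge of the window and 16557 bp from H3K27ac. Of the other 3, each 501 bp wide, the one starting at 27155915 lay inside the widest HOXA H3K27ac region. The one starting at 27139944 shared 56 bp with the second widest, and the one starting at 27175151 was 1307 bp from any.

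The marks met at some places in HOXA and HOXB and at none in HOXC. An H3K4me1 region met 2 of the 8 H3K27ac regions of HOXA, 3 of the 7 of HOXB and not the 1 of HOXC. Together that is 5 of 16, or 31.2% (exact 95% binomial interval 11.0% to 58.7%, counting error only), and the share over the list was 34.5%. Seen from H3K4me1, 2 of 5 regions in HOXA, 3 of 5 in HOXB and 0 of 1 in HOXC met H3K27ac. Together that is 5 of 11, or 45.5% (16.7% to 76.6%), beside 45.2% over the list. Both shares of the HOX windows were near those of their lists.

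HOXC and HOXD were almost without called intervals. HOXC holds HOXC13, a gene of hair and nail, and HOXC8 and HOXC9, which act in the trunk. It had 1 H3K27ac region, at 54411817 to 54412317, of 501 bp, the narrowest width the list holds, with a score of 10. Of all H3K27ac regions, 89.6% scored at least as high. Its 1 H3K4me1 region, at 54347113 to 54347613, was also 501 bp, with a score of 13, and stood 64203 bp from the nearest H3K27ac region.

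HOXD, which holds HOXD1, HOXD3 and the limb genes HOXD10 to HOXD13, had 0 intervals in each of the 4 lists. The stretch without H3K27ac around it ran from 176867365 to 177133968 on chromosome 2, a length of 266.6 kb. Of the 34614 gaps between neighbouring H3K27ac regions of a chromosome, 6.26% were at least as long. A fixed window falls more readily in a long gap than in a short one, so this share does not make the stretch unusual. Of tiles of 230 kb, 37.5% held no H3K27ac. No H3K4me1 region and no EHF peak lay in that stretch either. The lists hold only intervals that passed the caller's rules, among them a threshold of 17 tags for H3K27ac and 13 for H3K4me1 in the file headers. An empty window therefore shows that nothing passed, not that the mark was absent.

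Along the clusters, H3K27ac lay on the 3′ side. Each window was cut into 5 equal parts from the 3′ to the 5′ edge. In HOXB the covered share was 29.4%, 97.5%, 49.1%, 0% and 0% of successive parts. In HOXA it was 9.46%, 20.3%, 10.0%, 3.51% and 0%. The second part was the highest in both, and the last part held no H3K27ac in either. HOXD had no region to place. Between HOXB9 and HOXB13 the HOXB cluster has a long stretch without HOX genes, which lies on its 5′ side. In HOXC the single region fell in the second part, with 1.79% covered.

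Measured from the midpoint of the window, 97.3% of the H3K27ac bases of HOXB and 84.4% of those of HOXA were on the 3′ side. The 115 kb on the 3′ side of HOXB were 68.5% covered and the 115 kb on the 5′ side 1.91%. In HOXA the shares of the 2 sides were 14.6% and 2.71%. The position of the windows' edges bears on these shares, since a window that reaches further on one side adds bare DNA there. In HOXB the long stretch without HOX genes also lies on the 5′ side. Its split by side therefore cannot be told apart from the spacing of its genes, which were not placed.

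H3K4me1 followed the same side in HOXA and HOXB. All 3156 bases in HOXA and 82.1% of those in HOXB were on the 3′ side of the midpoint. By parts, H3K4me1 covered 4.20% and 7.07% of the first and second parts of HOXA and none of the rest. In HOXB it covered 3.89% of the first part and 2.18% of the third. It was missing from the second part, where H3K27ac covered 97.5%. The 1 H3K4me1 region of HOXC lay in the last part, on the opposite side from its H3K27ac region.

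**Figure D3:**
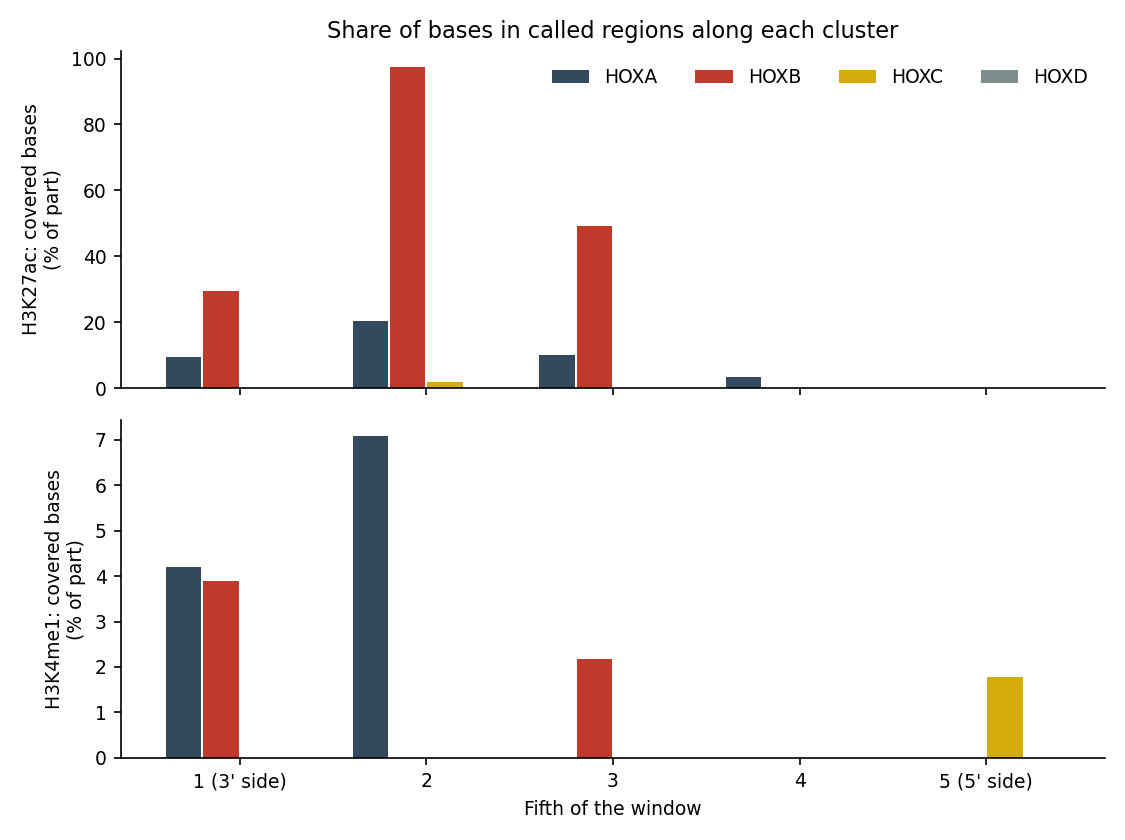
Percent of bases in called H3K27ac regions (top) and H3K4me1 regions (bottom) in 5 equal parts of each window, from the 3′ side on the left to the 5′ side on the right. The vertical scales differ between the panels. HOXB reaches 97.5% H3K27ac in its second part, where it has no H3K4me1.

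Within the windows of HOXA, HOXB and HOXC, the longest stretch without H3K27ac was on the 5′ side. This restates the positions above, since the stretches are what the same regions leave bare. Stretches at an edge are cut by the window. The nearest H3K27ac was 32.7 kb and 14.8 kb beyond the 3′ and 5′ edges of HOXA. For HOXB it was 82.0 kb and 53.1 kb beyond them. In HOXB the longest was 94.7 kb, at 46725316 to 46820000, or 41.2% of the window. The next was 28.5 kb at the 3′ edge, from 46590001 to 46618529. Each held 1 H3K4me1 region, the former only in part, and no EHF peak. In HOXA the longest was 46.4 kb, at 27213636 to 27260000, and the next 21.7 kb, at 27190914 to 27212652, and neither held an interval of any list. In HOXC the longest was 91.8 kb, at 54320001 to 54411816, with the cluster's H3K4me1 region and EHF peak in it. The other was 47.7 kb, at 54412318 to 54460000.

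EHF is a factor of the ETS family, which bind DNA around a GGAA core, and it is expressed in epithelia. The windows held 5 distinct EHF sites: 3 in HOXB, 1 in HOXA, 1 in HOXC and 0 in HOXD. Only 1 of them was called in both replicates. It lay at 46679111 to 46679287 in HOXB, with a score of 13 in replicate 1 and 21 in replicate 2, and the centres of its 2 peaks were 39 bp apart. In replicate 1, 15.9% of peaks scored at least 13, and in replicate 2, 9.78% scored at least 21. It stood inside the widest HOXB region, 17862 bp from the nearer edge, and 24960 bp from the nearest H3K4me1 region.

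The other 4 sites were called in replicate 2 only. In HOXB, one at 46618628 to 46618752 scored 12 and lay 98 bp inside the 3′ edge of the region of 7764 bp. Another at 46655794 to 46655918 scored 8, a score reached by 97.4% of the list, and lay in the region of 24092 bp. In HOXA, the site at 27213238 to 27213362 scored 13 and lay in the last H3K27ac region on the 5′ side, which is 983 bp wide. In HOXC, the site at 54389386 to 54389510 scored 11 and lay in neither mark, 22306 bp from H3K27ac and 41772 bp from H3K4me1.

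These counts are small beside the lists. The 1 peak of replicate 1 recurred in replicate 2, beside 50% of that list. Of the 5 peaks of replicate 2, 1 recurred in replicate 1, beside 14.7%. The replicates share their input, so these recurrences are not independent of it. The 1 peak of replicate 1 and 4 of the 5 of replicate 2 were in H3K27ac, beside 60.8% and 63.8% of the lists. None was in H3K4me1, beside 10.1% and 7.98%. The exact 95% interval for 4 of 5 is 28.4% to 99.5% and that for 0 of 5 reaches 52.2%.

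Set against its amount of H3K27ac, HOXB held about as many EHF peaks as other H3K27ac DNA. Replicate 2 had 3 peaks in the 80.9 kb of H3K27ac of HOXB, or 37.1 per Mb, against 51.3 per Mb in all H3K27ac regions of the genome. That density would give 4.15 peaks in HOXB. For replicate 1 the number was 1, where its density of 14.4 per Mb would give 1.17. Of the 39 H3K27ac regions of at least 20000 bp, 20.5% held a peak of replicate 1 and 61.5% a peak of replicate 2. The widest HOXB region held a peak of both replicates and the next a peak of replicate 2.

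In H3K27ac the DNA beside the clusters differed from the windows. In HOXB the neighbouring 230 kb had 2.01% H3K27ac on the 3′ side and 4.10% on the 5′ side, against 35.2% inside. The nearest H3K27ac regions outside it were 82.0 kb away on the 3′ side and 53.1 kb away on the 5′ side. In HOXA the neighbouring 140 kb had 0.835% and 3.10%, against 8.66% inside. HOXC went the other way, with 0.815% and 3.13% beside it and 0.358% inside, and 3.88% within 1 Mb on either side. HOXD had 2.91% on the 3′ side and 0.889% on the 5′ side, and 1.37% within 1 Mb. H3K4me1 did not set HOXA and HOXB apart in this way. It covered 2.25% of HOXA against 1.94% within 1 Mb, and 1.21% of HOXB against 1.86%. For HOXC the values were 0.358% and 1.04%, and for HOXD 0% and 0.444%.

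Just outside the HOXA window lay EHF sites that both replicates called. On the 3′ side, 33.2 kb beyond the edge, replicate 1 had a peak at 27086602 to 27086752 with a score of 17 and replicate 2 one at 27086623 to 27086747 with a score of 15. They lay in an H3K27ac region at 27086134 to 27087302. On the 5′ side, 15.0 kb beyond the edge, peaks at 27275058 to 27275208 and 27275040 to 27275164 scored 11 and 18, in an H3K27ac region at 27274825 to 27275876. On the 5′ side of HOXB, 48.4 kb beyond the edge, peaks of both replicates starting at 46868443 and 46868444 scored 10 and 12. Around HOXD the nearest EHF peak of replicate 1 was 1035 kb away and the nearest of replicate 2 was 432.3 kb away.

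**Figure D4:**
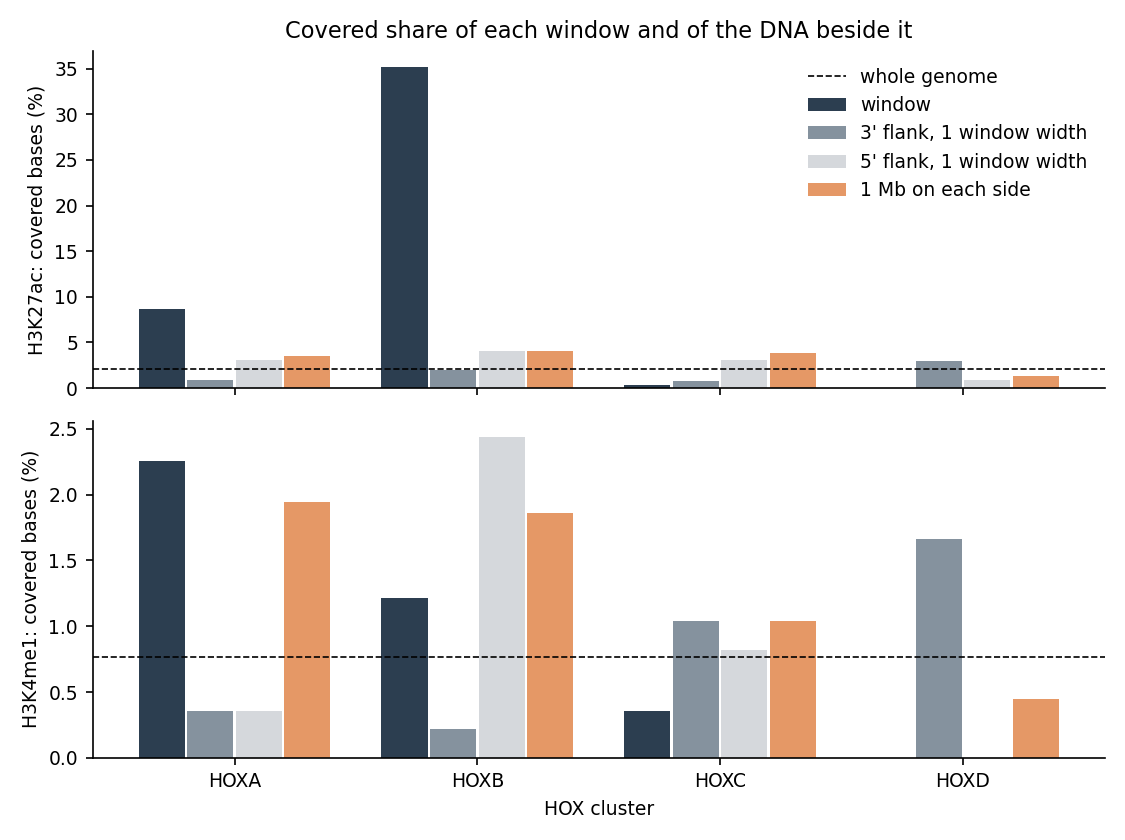
Percent of bases in H3K27ac regions (top) and H3K4me1 regions (bottom) for each window, for flanks of 1 window width on its 3′ and 5′ sides, and for 1 Mb on each side without the window. The dashed line is the whole genome (2.10% and 0.764%). For H3K27ac, HOXA and HOXB stand above their surroundings and HOXC and HOXD below.

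RefSeq promoter windows, 300 bases around the start, were found for 20 of the 38 HOX genes (27 windows, 16 of them in HOXA and 1 in HOXB). They were searched for CGGAAG, a longer form of the ETS core GGAA, on both strands, that is also CTTCCG. Other forms of the core were not searched, so the counts are not those of all ETS sites. CGGAAG was found on either strand in 2 of the 27 windows, 7.41%, and in 19.5% of the 35116 windows of the table. Windows of 1 gene are not separate members. By gene, the match was found in 2 of 20, or 10.0%, beside 22.6% of 27305 genes. The stretches below show the 2 matches, with the matched bases in capitals, each upstream of the start on the gene's own strand.
HOXA10 promoter (GRCh38.p14, strand -): cgagatggcgcaCTTCCGatcaatgtcaaa
HOXD4 promoter (GRCh38.p14, strand +): gaagggccaCGGAAGgttggcaaaatc
The match in HOXA10, a gene of the uterus and blood progenitors, begins 41 bases before the start, and that in HOXD4, a gene of the cervical spine, 241 bases before it. HOXD4 belongs to the cluster with 0 EHF peaks. The HOX windows were not short of CpG dinucleotides, with a median of 22 (range 0 to 44) against 14 over the table. The median was 21.5 in HOXA and 24.5 in HOXD, the clusters with more than 2 windows. The 16 windows of HOXA belong to 9 genes, and the 1 window of HOXB had 11 CpG. A link between CpG content and H3K27ac was not tested.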

How the data were processed

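The deposited interval lists of the 2 EHF libraries, H3K4me1 and H3K27ac were used. The submitters' processing notes name hg19, the aligner Bowtie 1.0.0 and HOMER 1.2. Libraries were called one at a time with HOMER findPeaks, per the file headers, at a false discovery rate of 0.01 and 4-fold over input and over the local 10000 bp, and mark regions were stitched from windows of 500 bp, which sets their widths. The deposited score is the authors' tag count scaled to 10000000 tags, given as whole numbers, and is not divided by input.

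Covered bases were clipped to the windows. Overlap meant at least 1 bp. Regions within a list do not overlap. Tiles ran from the first base of each chromosome. Intervals were handled in pandas 2.3.3 and numpy 2.4.6, with exact intervals from scipy 1.17.1 and plots from matplotlib 3.10.9, under Python 3.11.15. The interval functions were tested on simulated data. In each cluster the 3 widest H3K27ac regions, the 2 widest H3K4me1 regions (ties included), the 2 longest stretches without H3K27ac and every EHF peak are named. Other coordinates were chosen after their values were seen. The windows, genes and rules were chosen with earlier results of these data known. The planned counts at gene starts and of cofactor genes need an hg19 annotation and were not run. The input libraries were not analysed here. No test was made: each mark has 1 library, and nothing in the labels ties the EHF replicates to separate cultures. Exact intervals cover counting error only.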

Additional observations from a re-analysis of the deposited data

How the results depend on the processing

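Of 76 alternative values, 16 moved and 48 moved little, and 12 could not change by the form of their setting. These 12 comprised 7 for HOXD and 2 for HOXC that could only remove intervals from a value of 0, and 3 that asked for centres inside a window. The 6 others for HOXD are among the 48, but position fixed them at 0. The nearest H3K27ac, H3K4me1 and EHF intervals lay 64.0 kb, 66.5 kb and 432.3 kb beyond its window, further than any setting reached. Also among the 48, leaving out EHF replicate 1 could not change the HOXA, HOXB and HOXC counts, since replicate 2 called every site. For covered shares, little meant within the exact 95% interval over windows of 500 bp, for counts and widths within 1.5 times, and for positions within 10 points. Windows of 500 bp inside the same region are not independent, so that interval served as a cut-off and measures no spread. The order HOXB, HOXA, HOXC, HOXD by H3K27ac held under each setting, except that HOXC equalled HOXD at 0% when regions had to reach the list's median score per kb. No HOXC region was then left to give a width. Windows widened by 20 kb lowered HOXB to 29.98% and raised the EHF sites of HOXA to 2. With H3K4me1 required at the centre of the H3K27ac region, 0 regions met it in HOXA and 0 in HOXB, and with 50% of the shorter interval 1 did in HOXA. EHF sites numbered 0 to 1 in HOXA, 1 to 3 in HOXB and 0 to 1 in HOXC when either replicate was left out, the lower number without replicate 2, and HOXC had 0 with scores at or above the list's median. The middle of the most covered part, at 30.0% of the window in HOXA, HOXB and HOXC, moved with 3 parts to 16.67% in HOXA and HOXB and to 50% in HOXC. The cause of these changes was not tested beyond the settings themselves. The moved tile grid and the merged ranks were added after seeing the data. The 0.155% and 0.740% of tags in EHF peaks limit which sites either replicate could show. No paired analysis was possible because replicate numbers are given to the EHF libraries alone.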

Other observations

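On either grid, few other tiles of the size of HOXB were as densely covered. The only tile of 230 kb above it lay at 25990001 to 26220000 on chromosome 6, with 36.3% of its bases in H3K27ac. On the moved grid the only one above it lay at 33235001 to 33465000 on chromosome 10, with 35.3%. The tile above HOXB thus changed with the grid, and the number of such stretches at any position was not counted. The genes of these stretches were not analysed here.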
